A study of Mus musculus with 10 samples.

Results

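The 3 paraoxonase genes Pon1, Pon2 and Pon3, the thioredoxin gene Txn1 and the prostaglandin reductase gene Ptgr1 were followed in RNA-sequencing counts of whole mouse colon during colitis. The 5 rows were taken by gene name, through GENCODE M21, from 55416 rows in each of the deposited count tables. Pon2 was lower in colons of Vista knockout mice than in wild-type (WT) colons in every library, by 1.51-fold. Pon3 was lower in every library by a smaller amount that did not pass the test. Txn1 and Ptgr1 did not pass it, and Pon1 was close to undetected. The set was chosen by gene name with the KO and WT CPM and fold changes of these same libraries already known. The adjusted p values below therefore describe these libraries and give no independent support.

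All 10 libraries came from mice given 2% dextran sulfate sodium (DSS), an agent that injures the colonic epithelium, in drinking water for 7 days, and no mice without DSS were compared here. There were 5 Vista knockout (KO) and 5 WT libraries. KO 1 to 3 and WT 1 to 3 stood in a first table and KO 4, KO 5, WT 4 and WT 5 in a second. Vista, the product of Vsir, restrains T cells as an immune checkpoint. The genotype was labelled VISTA knockdown for KO 1 to 3 and Vista-/- for KO 4 and 5, and no label gives strain, sex, age or how the gene was disrupted. The design text called its 3 replicates per group biological. For the second table nothing ties libraries to animals. The p values that use its libraries, those of the pooled and interaction fits included, therefore measure only the spread between libraries. Likewise n counts libraries. In whole colon, fewer cells of a type and less RNA per cell cannot be told apart.

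Paraoxonases are calcium-dependent enzymes that open lactone rings and cleave some esters. PON1 and PON3 are made mainly in the liver, and PON1 circulates on high-density lipoprotein. PON2 stays inside cells of many tissues, in membranes of the endoplasmic reticulum and mitochondria. There it lowers superoxide release and also hydrolyses bacterial signalling lactones. Thioredoxin reduces protein disulfides and feeds electrons from NADPH to peroxiredoxins. PTGR1 is an NADPH-dependent reductase that inactivates leukotriene B4 and oxidised prostaglandins, and its gene is a known target of the oxidative stress factor NRF2.

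Row names could be used only in part of the genome. In stretches of mm10 chromosome 4 (1 to 59904737), chromosome 6 (1 to 30304539) and chromosome 15 (10446756 to 38078854), 29 of 32 genes from families that practically all cells use had at least 500 counts over the 10 libraries, against 233 of 909 elsewhere (25.6%). The 3 below that number were Atp6v0d2, Atp6v1fnb and Snx31. The stretches had been drawn on such genes, so their agreement is no separate check. The chromosome 6 stretch, on which the paraoxonase names rest, held 8 of the 32, of which 7 reached 500 counts. Vsir lies outside the stretches, so its row could not be used to check the genotype labels. Library totals ran from 3691322 to 4071238 counts. WT 4 and WT 5 stood apart from the other 8 libraries in an earlier principal component analysis of these tables. Results without them, from a fit that then also has no table covariate, are given below.

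The paraoxonase genes lie side by side on the minus strand of chromosome 6. Pon1 (ENSMUSG00000002588) spans 5168090 to 5193946, Pon3 (ENSMUSG00000029759) 5220852 to 5256286 and Pon2 (ENSMUSG00000032667) 5264147 to 5298455. A gap of 7861 bases separates Pon3 from Pon2. Because they are paralogs, it was examined whether 50-base reads, the length given for the second table, could be shared between them. Coding sequences of Pon2 and Pon3 were identical at 66.3% of aligned bases, those of Pon1 and Pon2 at 67.0% and those of Pon1 and Pon3 at 63.1%. The longest identical run was 14 bases between Pon2 and Pon3 and 23 between Pon1 and Pon2. The most similar pair of 50-base windows at like positions of the Pon2 and Pon3 coding sequences, from GENCODE M21 transcripts, is shown with the 11 differing bases in capitals.
Pon2 coding bases 613 to 662: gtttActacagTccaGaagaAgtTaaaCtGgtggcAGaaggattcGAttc
Pon3 coding bases 613 to 662: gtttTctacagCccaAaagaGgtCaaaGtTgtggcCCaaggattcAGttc
No 50-base window of the Pon1, Pon3 or Ptgr1 transcript occurred in an annotated transcript of another gene. Of 2360 windows of Pon2, 14 did, none in a paraoxonase. Only the longest coding transcript of each gene was searched. It holds 2409 bases for Pon2 and 1837 for Pon3, where all annotated exons together hold 7339 and 3385. The rest of the exons was not checked. Of 1002 windows of Txn1, 25 occurred in the pseudogene Txn-ps1. The closest windows of Pon1 and Pon2 differed at 8 bases and those of Pon1 and Pon3 at 11.

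The RefSeq promoter windows, from 250 bases before to 50 after the start site in GRCm38.p6, are shown for the 3 paraoxonases because Pon2 and Pon3 were both lower in KO libraries while Pon1 was almost silent. Capitals mark 2 searched motifs, the antioxidant response element TGACNNNGC, to which NRF2 can bind, and the GC box GGGCGG, on either strand. They do not overlap in these windows.
Pon2 promoter, chr6:5298291-5298590, minus strand: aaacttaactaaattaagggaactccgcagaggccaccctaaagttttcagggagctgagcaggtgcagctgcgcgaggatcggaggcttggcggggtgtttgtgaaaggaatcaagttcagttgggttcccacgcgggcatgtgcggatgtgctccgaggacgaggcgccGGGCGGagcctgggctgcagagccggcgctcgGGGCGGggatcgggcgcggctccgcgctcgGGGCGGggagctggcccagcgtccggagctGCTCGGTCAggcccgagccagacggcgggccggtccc
Pon3 promoter, chr6:5256184-5256483, minus strand: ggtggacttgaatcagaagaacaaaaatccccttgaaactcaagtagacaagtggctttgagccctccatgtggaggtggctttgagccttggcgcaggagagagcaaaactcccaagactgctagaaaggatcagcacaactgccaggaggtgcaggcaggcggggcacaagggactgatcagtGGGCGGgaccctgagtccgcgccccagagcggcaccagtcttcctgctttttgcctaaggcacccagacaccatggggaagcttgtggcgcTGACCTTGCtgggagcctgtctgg
Pon1 promoter, chr6:5193897-5194196, minus strand: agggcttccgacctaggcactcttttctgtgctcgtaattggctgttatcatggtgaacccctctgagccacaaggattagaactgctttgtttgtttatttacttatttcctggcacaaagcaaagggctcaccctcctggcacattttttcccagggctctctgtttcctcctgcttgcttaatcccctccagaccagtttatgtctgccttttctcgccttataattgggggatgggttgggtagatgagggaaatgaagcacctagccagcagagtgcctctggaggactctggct
Pon2 and Pon3 each held 1 antioxidant response element match, at bases 14 to 22 and 27 to 35 after the start, and Pon1, Txn1 and Ptgr1 held none. Such a match occurred in 12.4% of 32841 promoter windows of this length. Pon2 held 3 GC boxes, Pon3 held 1, Txn1 4, Ptgr1 2 and Pon1 none, against 35.7% of windows with at least 1. Of the 5 windows, that of Txn1 alone held a TATAAA box, found in 13.6% of all windows. CpG pairs numbered 31 in Pon2, 26 in Txn1, 7 in Pon3, 7 in Ptgr1 and 3 in Pon1, with a median of 7 over all windows. These matches describe letters in the windows and not bound sites. Whether any of them has a part in the differences between KO and WT was not tested.

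Levels are given as CPM, the field's usual scaling of a count by its library total. Divided by the length of all annotated exons, to compare genes, the mean over 10 libraries was 4119 CPM per kilobase for Txn1, 97.0 for Pon2, 61.7 for Pon3, 42.6 for Ptgr1 and 0.191 for Pon1. Txn1 was second of 527 protein-coding rows in the stretches, after the goblet cell gene Spink4 at 4523. Per kilobase of the single coding transcript used above, the mean level was 295 CPM for Pon2 and 114 for Pon3, in the same order. Among neighbours in that order, Pon3 in KO 4 (46.0 CPM per kilobase) lay just below the highest KO library of Ptgr1 (46.5), so these 2 were not separated in KO libraries on the scale of all annotated exons. Per kilobase of coding transcript they were, at 84.8 to 109 CPM for Pon3 and 38.3 to 46.5 for Ptgr1 in KO libraries. Pon2 and Pon3 did not overlap on this scale in either genotype.

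**Figure D1:**
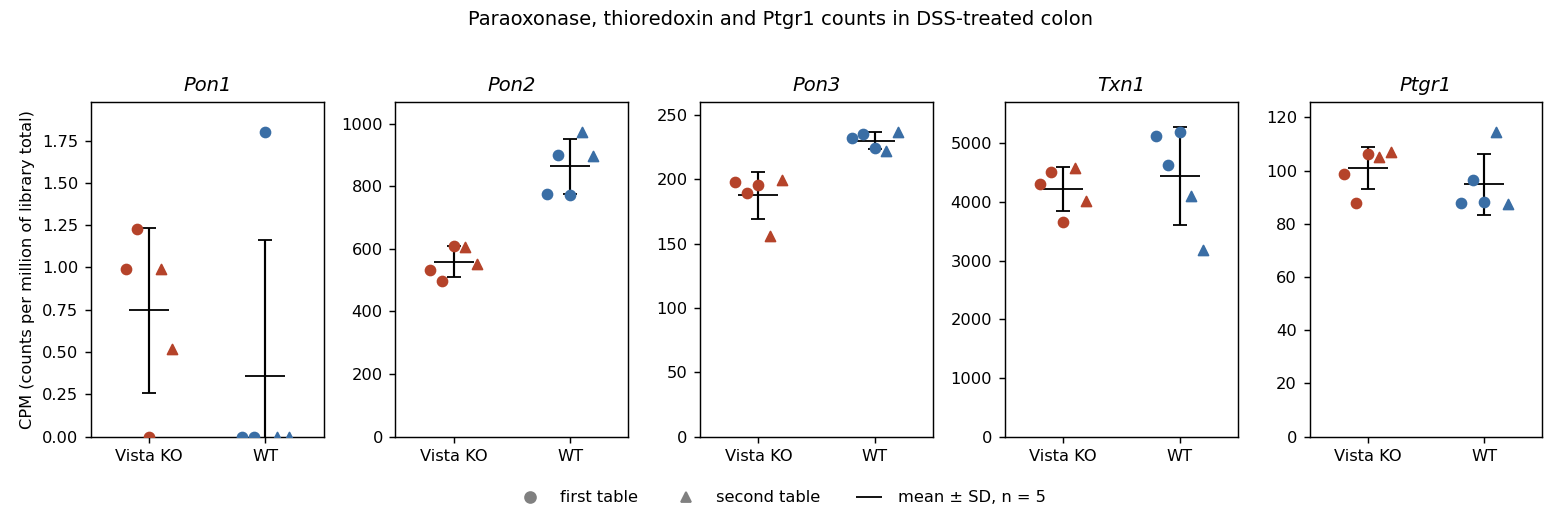
CPM of each gene in each library, with linear axes from 0, circles for the first table, triangles for the second, and bars for mean ± SD of 5 libraries. For Pon2 the KO libraries lie between 498 and 609 CPM and the WT libraries between 773 and 973, while the groups overlap for Txn1 and Ptgr1.

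Pon2, the intracellular paraoxonase, stood at 531, 498, 609, 607 and 550 CPM in KO 1 to 5. In WT 1 to 5 it stood at 776, 901, 773, 973 and 898 CPM. Every KO library was below every WT library, which entails the same within each table. The means were 559 ± 48.6 CPM in KO and 864 ± 87.3 in WT (SD, n = 5 each). The log2 fold change of KO over WT, fitted with the table as a covariate, was −0.60 ± 0.08 (SE). Its adjusted p was 0.00376 in edgeR's quasi-likelihood test. The first table alone gave −0.55 ± 0.10 (adjusted p 0.0151 in edgeR) and the second alone −0.69 ± 0.15 (0.110). The interaction of genotype and table was −0.14 ± 0.16 with an adjusted p of 0.755 in edgeR. Without WT 4 and WT 5 the change was −0.53, with an adjusted p of 0.0331. The first-table value lost the call without KO 1 (adjusted p 0.0659), KO 2 (0.0512) or WT 2 (0.0707).

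Pon3 was counted clearly in colon. Its levels were 198, 189, 195, 156 and 199 CPM in KO 1 to 5. In WT 1 to 5 they were 232, 235, 225, 222 and 237 CPM. Here too the groups did not overlap, and KO 4 was the lowest library. Means were 187 ± 18.1 and 230 ± 6.51 CPM (SD, n = 5 each). The log2 difference was −0.27 ± 0.08 (SE), at an unadjusted p of 0.00735 and an adjusted p of 0.0815 in edgeR, so it did not pass over all rows. It passed with DESeq2 (adjusted p 0.0434) and without KO 5 (0.0418 in edgeR). The separate tables gave −0.21 ± 0.09 and −0.36 ± 0.18, the second moving to −0.19 without KO 4 and −0.56 without KO 5. The interaction with table was −0.15, and 0.022 without KO 4 or −0.37 without KO 5.

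The differences of Pon2 and Pon3 can be set side by side through the ratio of Pon2 to Pon3 counts, in which the library total cancels. It was 2.63 to 3.90 in KO libraries and 3.34 to 4.38 in WT libraries, with means of 3.02 ± 0.53 and 3.76 ± 0.41 (SD, n = 5 each). The ranges overlap, KO 4 being the highest KO library. Whether Pon3 differed less between genotypes than Pon2 was not tested. Across the 10 libraries Pearson's r of log2 CPM between Pon2 and Pon3 was 0.72, a description over libraries that share the genotype difference.

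**Figure D2:**
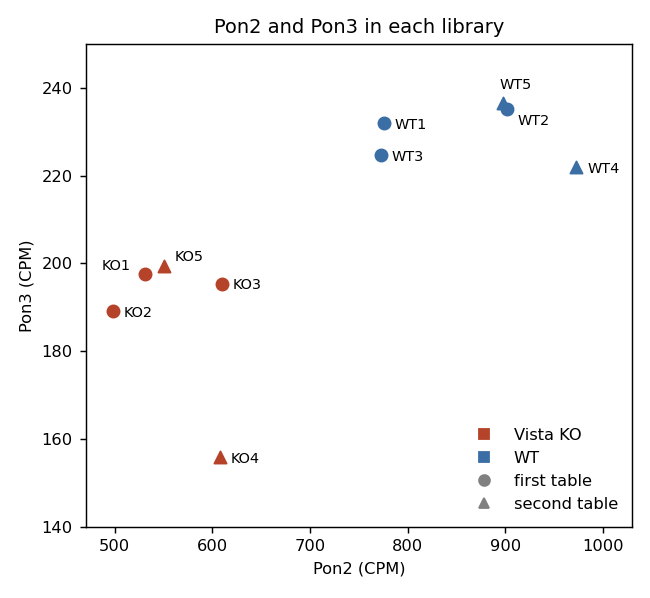
Pon2 against Pon3 in CPM, 1 point per library, with axes that do not start at 0. KO libraries lie to the lower left of all WT libraries, and KO 4 is lowest in Pon3 at 156 CPM but among the highest KO libraries in Pon2 at 607.

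Pon1, the serum enzyme, had 22 counts in all. KO 1 to 5 held 4, 5, 0, 4 and 2 counts, and WT 3 held 7 while the other 4 WT libraries held 0. A count of 0 allows up to 3 counts, or 0.74 to 0.81 CPM, by counting error alone. The row did not pass the filter on low counts, and no difference between genotypes was detectable at this depth.

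Between Pon1 and Pon3 lies Gm44250, a gene model of the annotation class TEC, on the same strand and 366 bases beyond the 3' end of Pon3. It was chosen after its values were seen. It held 212, 209, 225, 184 and 237 CPM in KO 1 to 5. WT 1 to 5 held 278, 261, 255, 289 and 266 CPM. The groups did not overlap, KO 4 was again lowest, and the log2 difference was −0.31 ± 0.09 with an adjusted p of 0.0575 in edgeR. This passed with DESeq2, with library totals in place of TMM, and without KO 5 (0.0293 in edgeR). On the opposite strand, Gm44424 overlaps an exon of Pon2 but had 1 to 11 counts per library.

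Of 11 tested rows within 1000 kilobases of Pon2, 1 passed the test. In either direction, 38 of 429 tested rows inside the stretches passed, and 5.63% over all rows. The 1 neighbour was Pdk4, which encodes an inhibitory kinase of pyruvate dehydrogenase and whose start site is 198 kilobases away. Its log2 fold change was −1.93 ± 0.28 with an adjusted p of 0.00526 in edgeR, and 0.0679 without WT 4 and WT 5. The groups overlapped, with KO at 5.90 to 13.1 CPM and WT at 12.4 to 56.4. Ppp1r9a, on the other side, had −0.59 ± 0.19 (adjusted p 0.0960 in edgeR). Slc25a13, at 149 ± 7.04 CPM in KO and 156 ± 19.5 in WT, had −0.03 ± 0.09.

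**Figure D3:**
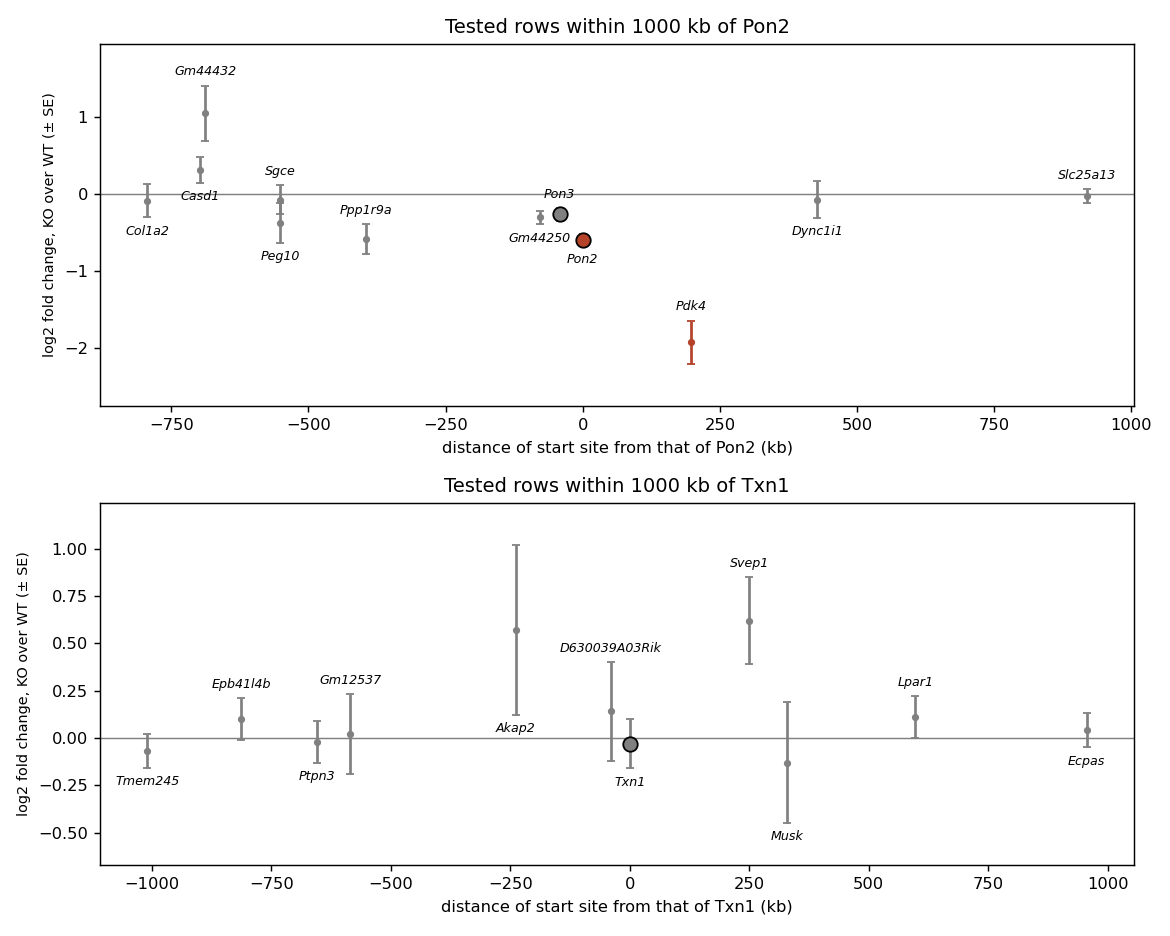
Log2 fold change of KO over WT ± SE for rows tested within 1000 kilobases of Pon2 (top) and of Txn1 (bottom), by distance between start sites in kilobases, with rows past an adjusted p of 0.05 in red. Pon2 and Pdk4 are the red points of the top panel and the bottom panel has none among 10 neighbours.

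Txn1 (ENSMUSG00000028367, chromosome 4 from 57943373 to 57956411, minus strand), the cytosolic thioredoxin gene, was among the highest rows. It had 4298, 4510, 3662, 4578 and 4022 CPM in KO 1 to 5. In WT 1 to 5 it had 5123, 4623, 5188, 4109 and 3175 CPM. The groups overlapped, and the lowest of all libraries was WT 5. Pooled, the log2 difference was −0.031 ± 0.13, with an approximate 95% interval of −0.28 to 0.22 and an adjusted p of 0.907 in edgeR. The sign turned with scaling on the stretches alone (0.024), without KO 3 (0.055) and without WT 1 (0.007). The tables differed in sign, with −0.22 ± 0.12 for the first and 0.24 ± 0.18 for the second. Without KO 3 the first was −0.11, and the second was 0.055 without WT 5, 0.15 without KO 4 and 0.44 without WT 4. In the first table all 3 KO libraries (3662 to 4510 CPM) were below all 3 WT libraries (4623 to 5188). In the second the KO and WT ranges overlapped. The share of all rows so separated within the first table was not taken, so nothing is read from this separation. Neither table's difference passed (adjusted p 0.272 and 0.644 in edgeR). The interaction was 0.46 ± 0.22 with an unadjusted p of 0.0554 and an adjusted p of 0.356 in edgeR. It was 0.28 without WT 5 (unadjusted p 0.266, adjusted p 0.774 in edgeR) and 0.65 without WT 4 (0.0235 and 0.301). Without WT 4 and WT 5 the pooled value was −0.22 with an adjusted p of 0.300. Within WT, the second table was lower than the first by −0.48 ± 0.16 on the log2 scale (adjusted p 0.120), and within KO the gap was −0.015 ± 0.15.

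Ptgr1 (ENSMUSG00000028378, chromosome 4 from 58965439 to 58987119, minus strand), the leukotriene and prostaglandin reductase gene, had a KO coefficient of variation of 7.92%, beside 8.70% for Pon2, 8.94% for Txn1 and 9.68% for Pon3. The WT coefficients were in another order, at 12.2% for Ptgr1, 10.1% for Pon2, 18.7% for Txn1 and 2.83% for Pon3. Levels of Ptgr1 were 98.6, 87.9, 106, 105 and 107 CPM in KO 1 to 5. WT 1 to 5 had 87.7, 96.4, 88.2, 114 and 87.5 CPM. The highest and the lowest of the 10 were both WT libraries of the second table. The log2 difference was 0.12 ± 0.09, with an approximate 95% interval of −0.06 to 0.29 and an adjusted p of 0.451 in edgeR. It was 0.065 without WT 5 and 0.18 without WT 4. The tables gave 0.14 ± 0.10 and 0.072 ± 0.19, and in the second the sign turned without WT 5 (−0.12).

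**Figure D4:**
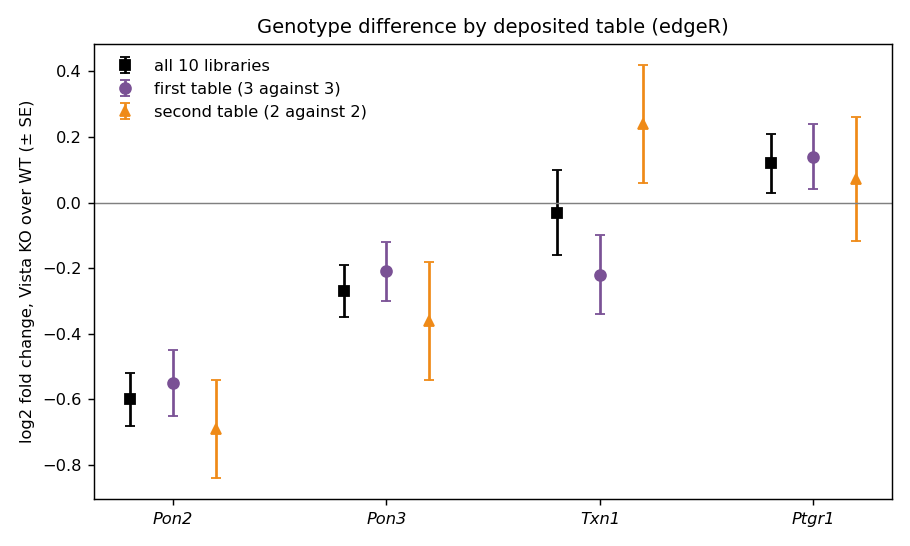
Log2 fold change of KO over WT ± SE from edgeR for all 10 libraries and for each table alone. Pon2 and Pon3 lie below 0 in all 3 fits, Txn1 is at −0.22 and 0.24 in the separate tables, and Ptgr1 is slightly above 0.

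Of the 4 genes that passed the filter on low counts, 1 was called lower and none higher, where 2.93% of 9736 rows were called lower and 5.63% in either direction. Fitted alone, the first table called 1 of the 4, where 6.06% of 9829 rows were called, and the second none, where 0.856% of 9932 were. These backgrounds moved with single libraries, from 596 called rows to between 158 (without WT 2) and 456 in the first table, and from 85 to between 0 (without KO 4, KO 5 or WT 4) and 5 in the second, where DESeq2 called 439. The interaction called none, where 2.05% of rows were. For 2 of the 4 every KO library was below every WT library, as in 4.51% of rows. Among the 429 rows tested inside the stretches, where these genes lie, this share was 9.79%. Since earlier results had been seen when the genes were chosen, nothing is read from these shares.

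The wider pathways could be read only in part. The 6 lists, of thioredoxin, glutathione, NRF2, superoxide and peroxide, lipid mediator and other metabolic enzymes, held 122 genes, of which 93 lie outside the stretches and were not read. No gene of the glutathione list, 0 of 24, lay inside, nor any of the 14 superoxide and peroxide enzymes. Of the thioredoxin list, 2 of 31 did, Txn1 and Txndc8, a testis thioredoxin gene that had 0 counts. Of the NRF2 list, Txn1 and Ptgr1 did. Besides the paraoxonases, Txn1 and Ptgr1, 24 listed genes lay inside, 21 were tested, 5 fell and none rose. Inside the stretches 30 of 429 tested rows were called lower (6.99%), against 2.93% over all rows. The listed genes' median log2 difference was −0.25, beside −0.031 over the 429 rows tested inside the stretches and 0.019 over all rows. The lists were written with earlier results of these data known, so nothing is read from these shares and medians.

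All 5 that fell came from the list of other metabolic enzymes, which had been drawn up from genes inside the stretches. Cmbl, a hydrolase gene of the dienelactone hydrolase family, had 84.4 ± 10.6 CPM in KO and 149 ± 25.5 in WT, a log2 change of −0.78 ± 0.13. Acnat1, an acyltransferase gene of bile and fatty acid conjugation, had −0.76 ± 0.10, with 36.6 ± 2.56 and 63.2 ± 6.74 CPM. Its related neighbour Acnat2 held 3 counts. Rida, the gene of an imine deaminase, had −0.49 ± 0.11, Gba2, of a glucosylceramidase, −0.46 ± 0.09 and Hint2, of a mitochondrial hydrolase, −0.39 ± 0.10. The adjusted p values ran from 0.00346 for Acnat1 to 0.0484 for Hint2 in edgeR.

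Single libraries decided several of these. Hint2 lost the call without any 1 of 9 libraries, all but KO 5 (adjusted p 0.0542 to 0.127 in edgeR). Rida lost it without KO 1, KO 2, WT 1, WT 2, WT 3 or WT 4 (0.0507 to 0.0723). Gba2 lost it without KO 1, WT 2, WT 4 or WT 5 (0.0516 to 0.0607). Without both WT 4 and WT 5, Cmbl had an adjusted p of 0.0566, and Hint2, Rida and Gba2 lost the call as well. Hint2 also lost it with no filter and with scaling on the stretches, and Gba2 without the table covariate. Acnat1 passed in all 17 alternatives run, with an adjusted p of at most 0.0174.

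Among enzymes that did not pass, Decr1, of fatty acid oxidation, had −0.34 ± 0.11 (adjusted p 0.0915 in edgeR) and Cox6c, a cytochrome c oxidase subunit gene, −0.33 ± 0.10 (0.0815). Cox6c passed without KO 1 (0.0323) and with DESeq2. Aldh1b1, a mitochondrial aldehyde dehydrogenase gene, had −0.17 ± 0.24 with 577 ± 145 CPM in KO and 707 ± 295 in WT, and ran from −0.29 to 0.22 over the alternatives. Aco1, the iron-responsive aconitase gene, had 0.09 ± 0.10, and Asns, the asparagine synthetase gene, 0.31 ± 0.19 (0.357), which passed without KO 5 (0.0141).

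**Figure D5:**
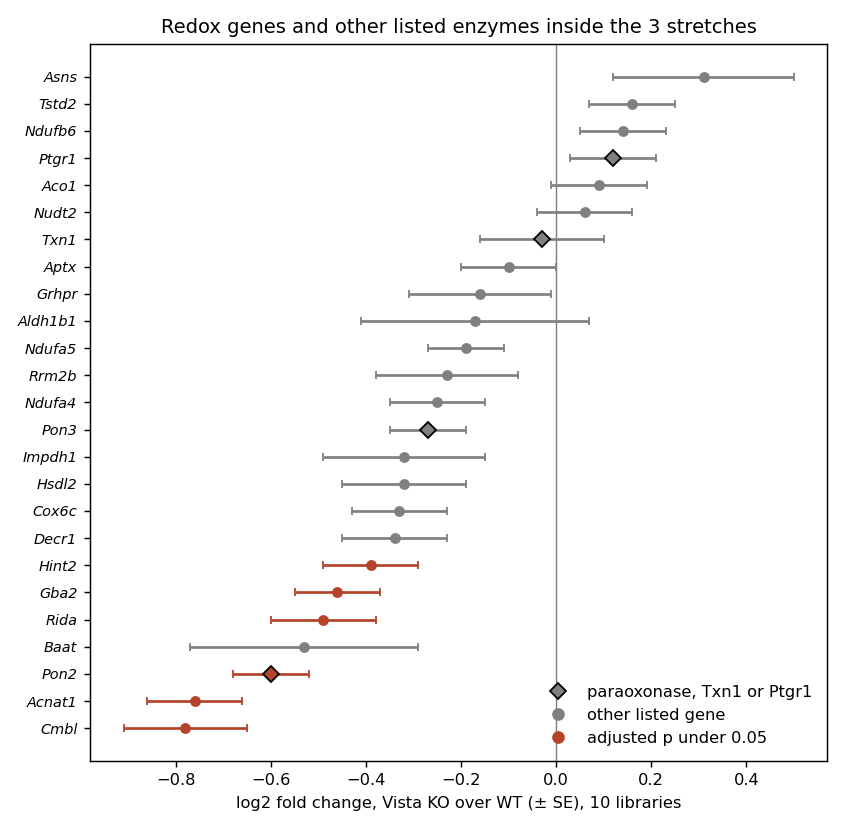
Log2 fold change of KO over WT ± SE over 10 libraries for every tested listed gene inside the stretches, diamonds marking Pon2, Pon3, Txn1 and Ptgr1 and red marking an adjusted p under 0.05. Cmbl, Acnat1, Pon2, Rida, Gba2 and Hint2 are red, all to the left of 0.

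By pattern over the 10 libraries, the rows most like Pon2 among 428 in the stretches were Car9, a hypoxia-induced carbonic anhydrase gene (Pearson's r 0.96), Tmem246 (0.95) and Acnat1 (0.94). Most like Pon3 were Hint2, Chchd7 and Gm44250, at 0.93 each. Txn1 was closest to Ugcg and Pnrc1 (0.87 each) and Dcaf12 (0.81), and Ptgr1 to Rngtt (0.81), Ankrd33b (0.80) and Dnaja1 (0.77). All values share the libraries, their totals and, for the first 2 genes, the genotype difference. Car9 was 343 ± 50.7 CPM in KO and 515 ± 50.8 in WT, and its groups did not overlap (log2 −0.57 ± 0.09, adjusted p 0.00790 in edgeR, 0.0678 without WT 4 and WT 5).

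Cell type markers were read where they lie inside the stretches. Of 10 epithelial markers 5 did, Cdh17, Klf4, Grhl2, Esrp1 and Cftr, and Cdh17, the intestinal cadherin gene, was at 3390 ± 324 CPM in KO and 3370 ± 201 in WT. Esrp1, an epithelial splicing factor gene, was at 1078 to 1211 CPM in KO and 1232 to 1410 in WT, without overlap (log2 −0.19 ± 0.08, adjusted p 0.191 in edgeR). The median log2 difference of the 5 was −0.15. Their summed level was 7027 to 8060 CPM in KO and 7134 to 9004 in WT libraries, and 1 of the 5, Cftr, the chloride channel gene, fell (log2 −0.69 ± 0.16, adjusted p 0.0310 in edgeR). That call was lost without any 1 of 6 libraries, KO 1, KO 2, WT 1, WT 2, WT 4 and WT 5 (0.0523 to 0.0831). The 2 goblet markers read, Spink4 and Galnt12, summed to 989 to 3215 CPM in KO and 1945 to 4192 in WT, and Galnt12 fell (−0.59 ± 0.12, adjusted p 0.0227), a call lost without WT 4 (0.0597) or WT 5 (0.0574).

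Sums of the other markers overlapped between genotypes for 3 fibroblast genes (649 to 1283 CPM in KO, 738 to 1379 in WT), 3 smooth muscle genes (684 to 1924 and 1029 to 1722) and 3 B-cell genes (388 to 683 and 179 to 570). Of these 9 none passed. Lyn, a B-cell and myeloid kinase gene (log2 0.61 ± 0.18, adjusted p 0.0717 in edgeR), passed without KO 4 (0.0380) or KO 5 (0.0369), with DESeq2 and with no filter, and Pax5 and Tpm2 passed with no filter. For 2 genes listed as T-cell markers, Tox and Bach2, which B cells also express, the sums did not overlap, at 73.5 to 88.9 CPM in KO and 89.8 to 131 in WT. Each gene alone overlapped, Tox with 48.1 to 63.0 and 62.8 to 112 CPM and Bach2 with 16.2 to 33.8 and 4.57 to 37.3 (log2 0.31 ± 0.48, −0.50 to 0.58 over the alternatives). Tox fell (−0.59 ± 0.15, adjusted p 0.0427 in edgeR), a call lost without any 1 of 8 libraries, all but WT 1 and WT 3 (0.0511 to 0.115). Of 2 enteric neuron genes Tac1 rose (log2 1.5 ± 0.25, adjusted p 0.00826) and Penk fell (−1.02 ± 0.24, 0.0308). Penk lost the call without KO 1, WT 1, WT 2 or WT 4 (0.0671 to 0.0775), and Tac1 without the table covariate. Cftr, Galnt12, Tox, Tac1 and Penk all lost it without WT 4 and WT 5 together. Macrophage, neutrophil, endothelial and liver markers lay outside and were not read, so the source of Pon3 counts could not be set against liver genes.

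Relative to Cdh17 CPM, Pon2 was 0.137 to 0.185 in KO and 0.215 to 0.283 in WT libraries, without overlap. Relative to the sum of the 5 epithelial genes it was 0.0618 to 0.0864 and 0.0861 to 0.126, where the ranges overlap slightly. For Pon3 the ratio to Cdh17 was 0.0407 to 0.0646 and 0.0642 to 0.0745, again overlapping slightly, and the ratio to the sum 0.0222 to 0.0255 and 0.0258 to 0.0331, without overlap. In an alternative chosen after seeing the data, each of the other 4 epithelial genes was the denominator in turn, and the groups then overlapped for both Pon2 and Pon3. The mean ratio of Pon2 to Esrp1 was 0.498 in KO and 0.663 in WT, and that to Klf4 0.217 and 0.376. Relative to Cftr, which itself fell, the KO mean was the higher, at 1.62 against 1.46 for Pon2 and 0.538 against 0.395 for Pon3. The separation of Pon2 thus held relative to Cdh17 and to none of the other 4. The part of cell composition in the differences was not tested.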

How the data were processed

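RNA of 10 mouse colon libraries was sequenced on the BGIseq500 platform. The deposited tables hold raw read counts by Ensembl gene identifier. Per the submitters' processing notes, HISAT2 2.2.1, featureCounts 2.0.1 and the human build GRCh38 belong to the first 6 libraries, and HISAT2, featureCounts 2.0.1 and mm10 to the other 4. No source used here gives the annotation or the strand setting, so reads of overlapping genes on opposite strands may not be separated. GENCODE M21 (mm10) named 52083 of 55416 rows, and unnamed rows stayed in totals and tests. The ends of the stretches were set by hand at named genes and not derived by a fit.

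CPM used column totals. Differences were tested on all rows with edgeR 4.0.16 (R 4.3.3) by quasi-likelihood after TMM scaling and its expression filter by genotype, and p values were adjusted by Benjamini-Hochberg and read at 0.05. The scripts were checked on simulated data. The SE of a log2 fold change was its size divided by the square root of edgeR's F statistic. Approximate 95% intervals are ±1.96 SE, which does not allow for the small number of libraries and makes them too narrow. Alternatives were DESeq2 1.42.0, limma 3.58.1 voom, other scalings, no filter, no table covariate, and omitted libraries. The genes, lists, stretches and tests were chosen with earlier results of these data known. Named genes were the 5 genes, listed genes inside the stretches, adjacent rows, and the 3 rows most correlated with each gene in log2(CPM + 0.5).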

Additional observations from a re-analysis of the deposited data

Results flagged for a closer look

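In 4 of 52 groups of 5 libraries examined, 1 library lay far from the others. The rule was Dixon's, a gap to the nearest library above 0.71 of the range. Chance gives about 2.6 such groups if values are normally distributed. Pon3 stood at 155.8 CPM in KO 4, against 189.1 to 199.4 in the other KO libraries. Pon1 stood at 1.80 CPM in WT 3, which is 7 counts, against 0 in the other WT libraries. With the others all at 0 any count is flagged, so the chance figure does not hold for Pon1. Rrm2b, a ribonucleotide reductase subunit gene with a log2 difference of −0.23 ± 0.15, stood at 36.84 CPM in WT 5, against 49.69 to 52.22. Tstd2, with 0.16 ± 0.09, stood at 77.26 CPM in KO 1, against 95.06 to 101.8.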

How the results depend on the processing

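No paired analysis was possible because KO and WT libraries carry different identification numbers. The pooled fall of Pon2 passed the threshold in all 17 alternatives run, from −0.64 to −0.53. Pon3 kept its sign in the same 17 and passed in 2, DESeq2 (−0.27) and the omission of KO 5, with −0.32 to −0.21 as single libraries were left out. Txn1 turned to 0.024 with scaling on the stretches and was −0.22 without WT 4, WT 5 and the table covariate. With 1 library left out Txn1 ran from −0.13 (without WT 5) to 0.055 (without KO 3). In the first table Pon2 ran from −0.60 to −0.48 and lost the call without KO 1, KO 2 or WT 2. In the second it passed with DESeq2 at −0.69 (adjusted p 0.0429, against 0.0429 to 0.780 over its alternatives). Ptgr1 there ran from −0.12 (without WT 5) to 0.28. The interaction ran from −0.37 to 0.022 (without KO 4) for Pon3 and from −0.26 to 0.12 (without WT 4) for Ptgr1. The number of the 5 genes called was 2 with DESeq2 and 1 to 2 as single libraries were left out. Over all rows, 548 were called, 840 with DESeq2, 1260 with no filter, 78 without WT 4, WT 5 and the table covariate, and 226 (without WT 4) to 990 (without KO 5) with 1 library left out. Leaving out KO 1, KO 2, WT 1, WT 2 or WT 5 gave 308, 260, 314, 237 and 262. For the values that moved, the cause was not tested. Fits of the second table with 1 library left out assume that the lone library varies like the others. Counting error limits what can be said of Pon1.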
